A study of Mus musculus with 2 samples.

Results

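Genes of the p53 response, the BCL2 family and the caspases were followed in mouse breast tumour tissue, as 38 gene symbols picked by name from a table of 35602. The mice of the first group had received a PD-1 inhibitor intraperitoneally, and those of the second group the same inhibitor and acupuncture. Each group is represented by 1 library, and the inhibitor is common to both, so no untreated tumour enters any comparison. The tumour line, the mouse strain, sex and age, the doses, the acupuncture points and whether animals were pooled are not stated by the sources used here. What is addressed is whether the cell death machinery of the tumour is expressed differently when acupuncture is added to PD-1 blockade. Without replicates no test between groups could be run, no p-value is given, and every interval below is an exact 95% Clopper-Pearson interval that covers counting error only.

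The transcription factor p53, encoded by Trp53, is stabilised by DNA damage and other stress and switches on genes that halt the cell cycle, repair DNA or start cell death. Mdm2, itself a p53 target, marks p53 for degradation and closes a feedback loop. In the mitochondrial route to apoptosis, BH3-only proteins sense stress and engage anti-apoptotic BCL2 proteins, which otherwise hold the pore-forming effectors BAX and BAK in check. Once the outer membrane is opened, cytochrome c joins APAF1 to form the apoptosome, which activates caspase 9, while death receptors act through caspase 8. Many of these proteins are controlled by stability, cleavage or location, which transcript counts do not show.

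The deposited counts came to 105728292 without acupuncture and 60752043 with it, and the 38 genes took 0.224% and 0.230% of them. Levels are given as CPM, counts per 1000000 of library sizes scaled by TMM, a method that sets the bulk of genes to no difference. All 10 epithelial markers were present, at 16.9 to 1564 CPM without and 19.0 to 1060 CPM with acupuncture. Their log2 ratios had a median of -0.49 and ran from -1.71 for Krt19 to 0.44 for Cldn7, the only marker of this list with a positive value. Of these 10, 2 were at least 2-fold lower with acupuncture and 0 at least 2-fold higher. The libraries also differed in content. T cell markers were at least 2-fold higher with acupuncture in 6 of 6 cases (summed level 20.1 and 107.7 CPM), B cell markers in 7 of 7 (1.85 and 104.0 CPM, with Fcmr at 0 counts without acupuncture), adipocyte markers in 6 of 6 (247.6 and 1114 CPM) and skeletal muscle markers in 6 of 6 (162.4 and 1901 CPM). Neutrophil markers were at least 2-fold lower in 6 of 7 cases (211.9 and 20.3 CPM) and hypoxia markers in 7 of 8 (3122 and 1149.5 CPM), whereas none of 9 proliferation markers or 7 macrophage markers passed that limit. The 7 fibroblast markers also stayed within it, at a median log2 ratio of 0.35 (summed level 7039 and 9595 CPM). In bulk tissue fewer cells of a type and less RNA per cell cannot be told apart.

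None of the measured members reached a 2-fold difference in either direction under TMM scaling. Genes were listed at a difference of 2-fold or more with a counting interval that excluded 1, provided both libraries together held 20 reads or more, a minimum that 37 of the 38 members passed. By that rule 0 of 37 members were higher with acupuncture, beside 9.21% of the 18687 genes measured, and 0 of 37 were lower, beside 4.90%. The count of higher members rested on the scaling, since with the epithelial markers set to a median of 0 it was 3, Ccng1, Trp53inp1 and Cycs, at log2 ratios of 1.38, 1.15 and 1.23. Among all genes with 100 reads or more in both libraries together, a depth that the 37 members also reached, the shares were 6.92% and 3.28%. Member log2 ratios ran from -0.72 for Perp to 0.88 for Ccng1 with a median of -0.07, while the median over all measured genes was 0.0003. Their interquartile range was 0.46, against 0.62 over all measured genes. That wider set includes genes with as few as 20 reads, so the spreads are not matched for depth. The member outside the count, Hrk, a BH3-only gene known mainly from neurons, had 0 reads in both libraries. The floor of 3 counts used here corresponds to 0.0294 CPM without acupuncture and 0.0477 CPM with it.

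**Figure D1:**
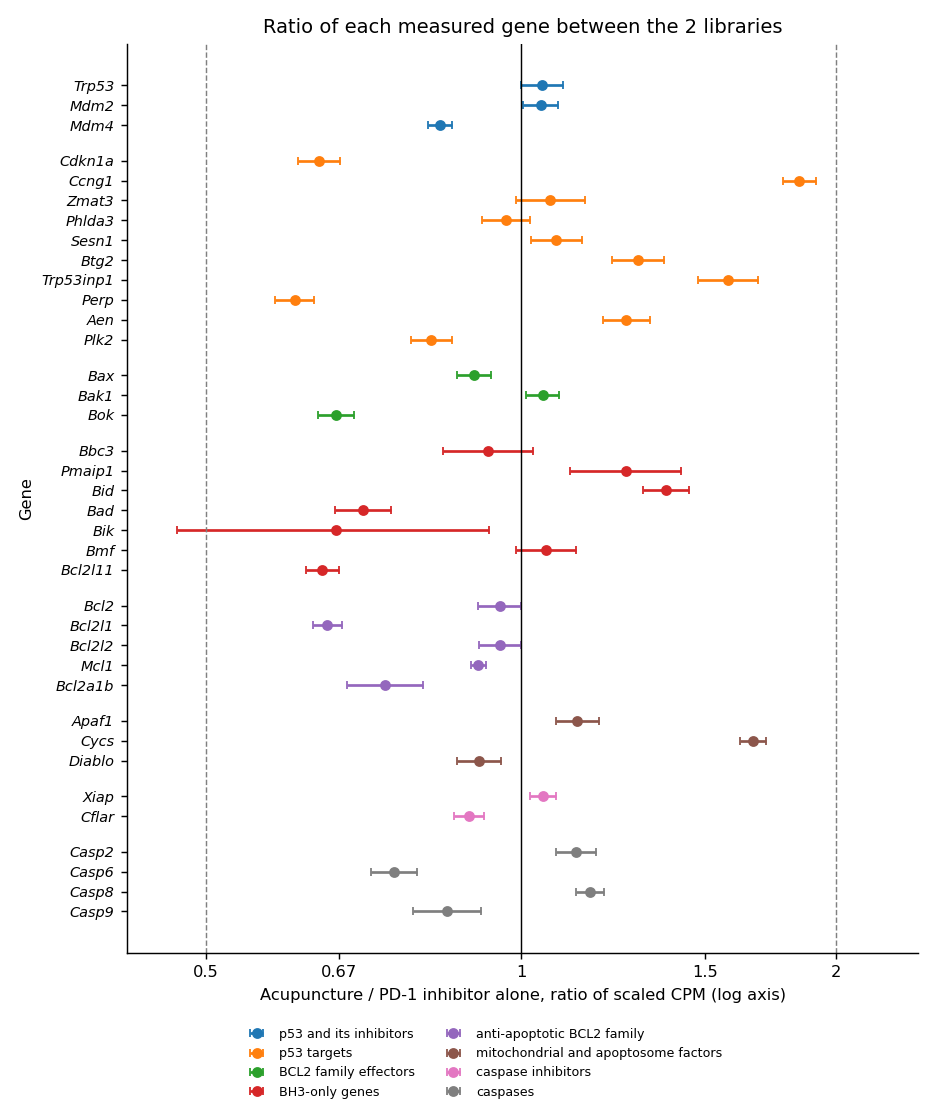
Ratio of scaled CPM, acupuncture over PD-1 inhibitor alone, on a log axis for the 37 measured genes, coloured by role, with exact 95% counting intervals as bars and dashed lines at 2-fold. No point lies beyond a dashed line, and the ratios run from 0.607 for Perp to 1.85 for Ccng1.

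At a lower limit of 1.5-fold, 3 members were higher, beside 14.3% of all measured genes, and 6 were lower, beside 10.3%. Those higher were Ccng1, Trp53inp1 and Cycs, and they remained so under all 5 alternative scalings, although their number rose to 12 with the epithelial markers set to a median of 0. Those lower were Perp, Cdkn1a, Bcl2l11, Bcl2l1, Bok and Bik. Their number was 1, Perp, under scaling by total counts, and 0 with that epithelial scaling, which raises every log2 ratio by 0.49. Without any fold limit, intervals excluded 1 for 15 members above it, beside 35.1% of all measured genes, and for 16 below it, beside 34.8%.

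**Figure D2:**
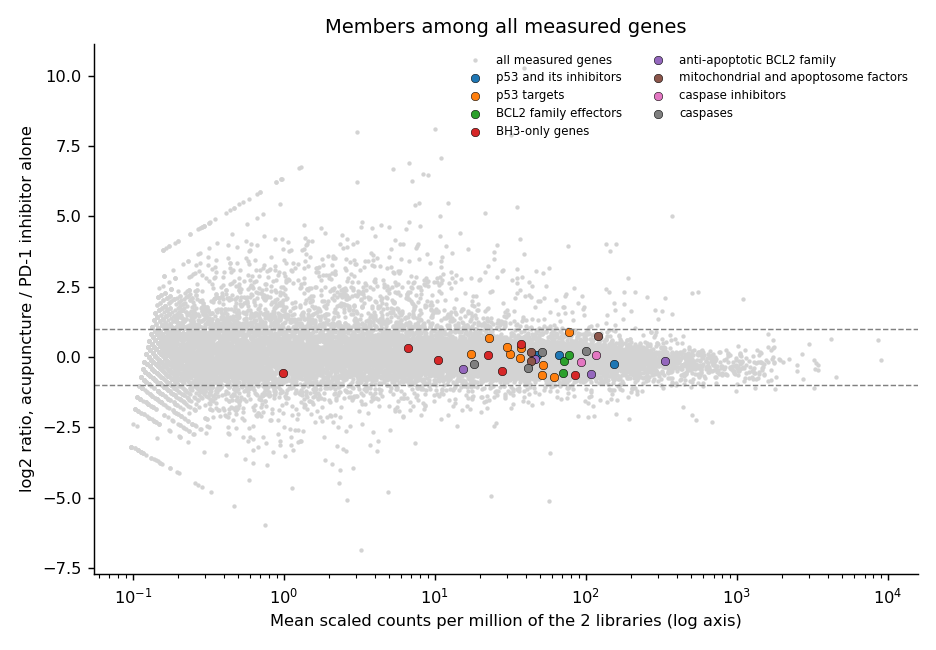
Log2 ratio against mean scaled CPM (log axis) for the 18687 measured genes in grey and the 37 members in colour by role, with dashed lines at a 2-fold difference. The members lie between -0.72 and 0.88, inside the dashed lines, at abundances where other genes spread well beyond them.

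Trp53 and its inhibitor Mdm2 differed little between the libraries. Trp53 stood at 46.3 CPM without acupuncture and 48.5 CPM with it, a ratio of 1.05 (1.00015 to 1.10). Mdm2, the ubiquitin ligase that degrades p53, was at 64.9 and 67.8 CPM, a ratio of 1.04 (1.005 to 1.09). The share of Mdm2 in the reads of Mdm2 and Trp53 together, which needs no scaling between libraries, was 58.4% (57.4 to 59.3) and 58.3% (57.2 to 59.4), so the intervals overlapped almost fully. Mdm4, a relative of Mdm2 that blocks the activation domain of p53, was at 168.2 and 140.7 CPM, 1.20-fold lower with acupuncture (1.17 to 1.23). Against Mdm4, Mdm2 accordingly took a larger share with acupuncture, 32.5% (31.7 to 33.3) in place of 27.9% (27.3 to 28.4). The sign of the Mdm4 log2 ratio, -0.26, changed to 0.23 with the epithelial markers set to a median of 0.

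The 10 p53 targets did not move as a block. Their log2 ratios had a median of 0.10 and spanned -0.72 to 0.88, the widest range of the 8 role groups. They are also the largest of these groups, and a range tends to widen with the number of genes. Ccng1, encoding cyclin G1, which recruits a phosphatase to MDM2, was at 54.3 CPM without acupuncture and 100.2 CPM with it, 1.85-fold higher (1.78 to 1.91). Trp53inp1, a p53-induced nuclear protein that promotes cell cycle arrest and death, followed at 17.8 and 28.2 CPM, 1.58-fold higher (1.48 to 1.69). Smaller differences in this direction were seen for Btg2, an anti-proliferative regulator of mRNA decay, at 26.2 and 33.8 CPM (1.29-fold, 1.22 to 1.37), and for Aen, a nuclease active in apoptosis, at 32.9 and 41.5 CPM (1.26-fold, 1.20 to 1.33).

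Cdkn1a and Perp went the other way. Cdkn1a encodes p21, the cyclin-dependent kinase inhibitor through which p53 halts the cell cycle, and stood at 62.2 CPM without and 39.9 CPM with acupuncture, 1.56-fold lower (1.49 to 1.64). Relative to Trp53 within each library, Cdkn1a took 57.3% of the pair's reads without acupuncture (56.4 to 58.2) and 45.1% with it (43.8 to 46.4), and these intervals did not overlap. Perp, a membrane protein of desmosomes as well as a p53 effector in apoptosis, was at 76.2 and 46.3 CPM, 1.65-fold lower (1.58 to 1.72). Plk2, a polo-like kinase induced by p53, was at 56.9 and 46.7 CPM (1.22-fold lower, 1.17 to 1.27), a direction that turned under the epithelial scaling at a log2 ratio of 0.21. The epithelial and hypoxia marker lists, with medians of -0.49 and -1.18, were lower in the same library as Perp and Cdkn1a, and their part in these differences was not tested.

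The remaining targets lay close to equality. Zmat3, an RNA-binding protein, was at 16.7 and 17.9 CPM (ratio 1.07, 0.989 to 1.15). Phlda3, an inhibitor of AKT signalling, stood at 37.2 and 35.98 CPM (0.968, 0.919 to 1.02). Sesn1, a sestrin that restrains mTORC1, was at 30.3 and 32.7 CPM (1.08, 1.02 to 1.14). The intervals of Zmat3 and Phlda3 include 1.

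Because targets of 1 factor differed in direction, promoter windows from RefSeq on build GRCm38.p6 were searched. Each holds 250 bases before to 50 bases after a start site. The build is older than the GRCm39 named for the counts, which carry no coordinates, and genes were matched by symbol. The motif was the p53 half-site decamer, which reads the same on both strands by its definition, and a full site was 2 such decamers with a spacer of at most 13 bases. No mismatch was allowed, so near matches were not counted or marked. Of the 38 members 33 had an entry, with 47 windows, and those with none were Zmat3, Trp53inp1, Perp, Pmaip1 and Bik. At least 1 half-site was found in 8 of the 33 genes and in 9 of the 47 windows (19.1%), beside 8.36% of 32851 windows of all genes. Of the 10 genes matched among p53, its inhibitors and targets, 6 had a half-site, as did 2 of the 23 matched among the other members. Those other members also include p53-induced genes, such as Bbc3, so the split is not one of targets against non-targets. Some genes have several windows, and no share per gene was computed over all genes. A full site was present in 1 member window, beside 24 windows (0.0731%) of all genes. The 4 windows below come from a target lower with acupuncture (Cdkn1a), the feedback inhibitor (Mdm2), the target with the highest ratio (Ccng1) and the effector Bax, with half-sites in capitals, printed 5′ to 3′ along the gene.
Cdkn1a: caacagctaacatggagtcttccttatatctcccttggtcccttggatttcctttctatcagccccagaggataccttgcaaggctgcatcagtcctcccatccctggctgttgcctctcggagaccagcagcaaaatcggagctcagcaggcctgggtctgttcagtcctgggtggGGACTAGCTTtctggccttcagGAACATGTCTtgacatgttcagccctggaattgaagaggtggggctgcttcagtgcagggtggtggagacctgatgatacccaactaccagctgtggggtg
Mdm2: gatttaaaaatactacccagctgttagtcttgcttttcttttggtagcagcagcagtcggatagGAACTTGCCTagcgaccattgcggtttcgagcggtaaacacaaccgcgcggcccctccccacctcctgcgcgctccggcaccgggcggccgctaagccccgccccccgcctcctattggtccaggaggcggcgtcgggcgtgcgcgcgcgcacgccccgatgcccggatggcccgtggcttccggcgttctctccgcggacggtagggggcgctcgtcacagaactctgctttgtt
Ccng1: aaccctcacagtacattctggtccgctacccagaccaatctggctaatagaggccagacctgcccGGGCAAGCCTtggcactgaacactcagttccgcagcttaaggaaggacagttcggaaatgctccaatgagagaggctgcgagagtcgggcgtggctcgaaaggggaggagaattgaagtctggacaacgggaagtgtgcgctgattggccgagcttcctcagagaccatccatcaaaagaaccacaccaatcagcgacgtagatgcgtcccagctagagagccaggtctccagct
Bax: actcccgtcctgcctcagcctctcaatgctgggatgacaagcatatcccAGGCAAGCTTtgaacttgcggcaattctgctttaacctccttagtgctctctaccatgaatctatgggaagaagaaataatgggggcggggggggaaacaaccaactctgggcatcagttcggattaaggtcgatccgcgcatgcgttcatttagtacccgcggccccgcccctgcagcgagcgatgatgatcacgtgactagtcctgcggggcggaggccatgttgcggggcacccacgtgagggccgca
The Cdkn1a window, chr17:29090729-29091028 on the plus strand, belongs to the more distal of its 2 start sites, which lie 2790 bases apart, and is the member window with a full site, its half-sites lying 73 to 64 and 51 to 42 bases upstream of that start. The decamer directly after the half-site nearer the start misses the motif at its first base and was left unmarked. The others, on the minus strand, hold 1 half-site each. That of Mdm2 (chr10:117710709-117711008) lies 186 to 177 bases upstream of the start, that of Ccng1 (chr11:40755237-40755536) 185 to 176 bases and that of Bax (chr7:45466849-45467148) 201 to 192 bases. Windows with a half-site thus include genes on either side of equality, with ratios of 0.641 for Cdkn1a, 0.903 for Bax, 1.04 for Mdm2 and 1.85 for Ccng1. A match describes these letters and is not evidence of binding, sites outside the windows were not searched, and the counts do not separate start sites.

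The effectors of the BCL2 family, which permeabilise the mitochondrial outer membrane, differed from one another. Bax was at 75.6 CPM without acupuncture and 68.2 CPM with it, 1.11-fold lower (1.07 to 1.15), and Bak1, its partner, was at 75.03 and 78.7 CPM, a ratio of 1.05 (1.01 to 1.09). Bok, a less studied relative, stood at 85.0 and 56.6 CPM, 1.502-fold lower (1.44 to 1.56). The Bax log2 ratio of -0.15 turned to 0.34 under the epithelial scaling, whereas those of Bak1 and Bok kept their sign under all 5 alternative scalings.

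**Figure D3:**
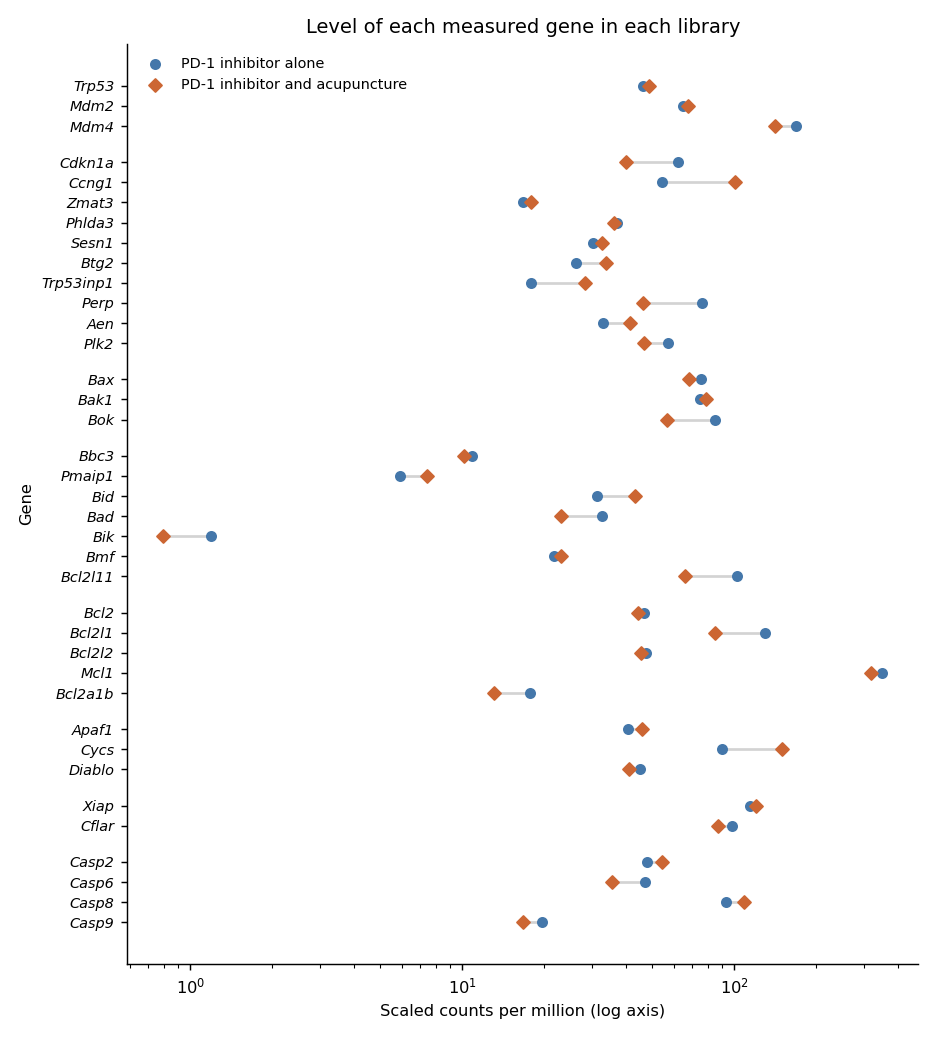
Scaled CPM of the 37 measured genes on a log axis, with the PD-1 inhibitor alone as blue circles and the inhibitor with acupuncture as orange diamonds, joined by a grey line, and 1 library per group. The longest lines include those of Ccng1 (54.3 and 100.2 CPM) and Cycs (89.8 and 149.5 CPM), which run to the right, and of Perp (76.2 and 46.3 CPM) and Cdkn1a (62.2 and 39.9 CPM), which run to the left.

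BH3-only genes split in direction. Bcl2l11 encodes BIM, the BH3-only protein that links loss of growth factor signals to apoptosis, and was at 102.3 CPM without and 66.0 CPM with acupuncture, 1.55-fold lower (1.49 to 1.61). Bad, which phosphorylation by survival kinases inactivates, stood at 32.7 and 23.1 CPM, 1.42-fold lower (1.33 to 1.51). Bik, an endoplasmic reticulum member known from epithelial cells, had 122 and 50 reads, or 1.20 and 0.795 CPM, 1.504-fold lower with a wide interval (1.07 to 2.13). In contrast, Bid, which caspase 8 cleaves to carry death receptor signals to mitochondria, was at 31.4 and 43.2 CPM, 1.38-fold higher (1.31 to 1.45). Pmaip1, encoding NOXA, a p53 target that binds MCL1, was at 5.91 and 7.44 CPM, 1.26-fold higher (1.11 to 1.42).

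Another p53-induced BH3-only gene showed no such difference. Bbc3, encoding PUMA, was at 10.9 and 10.1 CPM, a ratio of 0.931 (0.843 to 1.03). Bmf, a BH3-only protein tied to the cytoskeleton, was at 21.8 and 23.0 CPM, a ratio of 1.06 (0.989 to 1.13). Both intervals include 1. Over the 7 measured BH3-only genes the median log2 ratio was -0.10.

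All 5 anti-apoptotic genes had ratios below 1, with log2 ratios of -0.62 to -0.07 and a median of -0.14. The sign was not the same under every scaling: by total counts Bcl2 and Bcl2l2 were at 0.03 each, and with the epithelial markers at 0 only Bcl2l1 kept a negative log2 ratio, -0.12. Bcl2l1, encoding BCL-XL, stood at 130.1 CPM without acupuncture and 84.9 CPM with it, 1.53-fold lower (1.48 to 1.58). Mcl1, whose protein is short-lived and sustains many tumour and immune cells, was at 350.5 and 319.1 CPM, 1.10-fold lower (1.08 to 1.12). Per kilobase of annotated exon Mcl1 had the highest level of the 38 genes in both libraries (102.5 and 93.4 CPM per kilobase), followed by Bax (87.1 and 78.7 CPM per kilobase).

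Bcl2 and Bcl2l2 hardly differed. Bcl2, the founding member, prominent in lymphocytes, was at 46.5 and 44.4 CPM, a ratio of 0.955 (0.911 to 1.0004). Bcl2l2, encoding BCL-W, was at 47.4 and 45.3 CPM, also 0.955 (0.912 to 1.0006). T and B cell markers were higher in the library with acupuncture, with median log2 ratios of 2.59 and 6.26, beside -0.07 for Bcl2, and their part in the Bcl2 level was not tested. Bcl2a1b, a BCL2 relative of blood cells, was at 17.7 and 13.1 CPM, 1.35-fold lower (1.24 to 1.47). It has close copies, so the split of its reads is uncertain. Bcl2a1a was at 13.9 and 10.1 CPM, Bcl2a1d at 23.2 and 21.2 CPM and Bcl2a1c at 1 and 2 reads, and the sum of the 4 copies was 54.8 and 44.5 CPM, 1.23-fold lower (1.18 to 1.29). Neutrophil markers, at a median log2 ratio of -3.33, were lower in the same library, and their part was not tested.

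Pairs of functionally related genes were also compared as shares of their joint reads within each library, which removes the scaling. Of 12 pairs, chosen with earlier results of these data known, 9 had counting intervals that did not overlap between the libraries. No share over other gene pairs was computed to set beside this count. Among all measured genes, ratio intervals lay wholly above 1 for 35.1% and wholly below it for 34.8%, so separation beyond counting error was common. Bcl2l1 took 63.3% of the reads of Bcl2l1 and Bax without acupuncture (62.6 to 63.9) and 55.4% with it (54.4 to 56.4). Mcl1 against Bax had overlapping intervals, 82.3% (81.9 to 82.6) and 82.4% (81.9 to 82.9), and Bcl2 against Bax was at 38.1% (37.3 to 39.0) and 39.4% (38.3 to 40.6), with overlapping intervals. The read share of Bcl2l1 with Bax thus differed beyond counting error between these libraries, while those of Mcl1 and of Bcl2 with Bax did not. With 1 library per group, variation between tumours is not covered by these intervals. The libraries also differed in cell content, and its part in these shares was not tested.

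BH3-only sensors were set against anti-apoptotic proteins they bind in the same way. Bcl2l11 took 22.6% of its reads with Mcl1 without acupuncture (22.2 to 23.0) and a smaller share, 17.1%, with it (16.7 to 17.6). Pmaip1 against Mcl1 ran the other way, from 1.66% (1.53 to 1.79) to 2.28% (2.08 to 2.49), as did Bbc3 against Bcl2l1, from 7.71% (7.28 to 8.16) to 10.6% (9.87 to 11.5). The direction therefore depended on which sensor and which guardian were paired. Between the anti-apoptotic genes Bcl2a1b and Mcl1, Bcl2a1b took 4.803% (4.59 to 5.02) and 3.95% (3.69 to 4.22) of the joint reads.

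**Figure D4:**
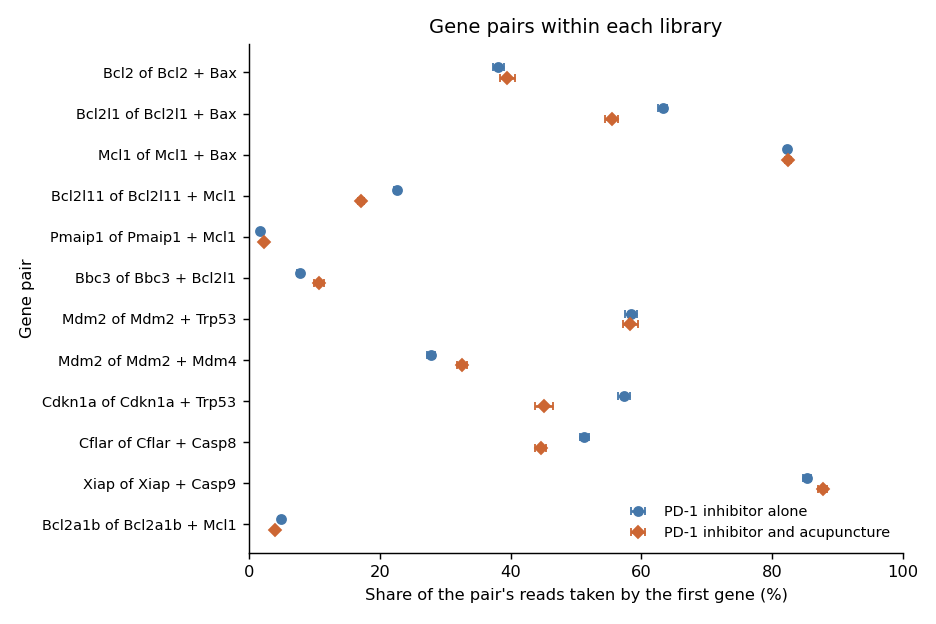
Share of the reads of 12 gene pairs taken by the first gene, in percent, for the PD-1 inhibitor alone (blue circles) and with acupuncture (orange diamonds), with exact 95% binomial intervals. Marks of Mdm2 with Trp53, Mcl1 with Bax and Bcl2 with Bax overlap, and the others are apart, such as Cdkn1a with Trp53 at 57.3% and 45.1%.

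Downstream of mitochondria, Cycs stood apart from its partners. Cycs, encoding cytochrome c, was at 89.8 CPM without acupuncture and 149.5 CPM with it, 1.67-fold higher (1.62 to 1.71). Cytochrome c is an electron carrier of the respiratory chain in addition to its role in apoptosis, and it is abundant in muscle and brown fat. Muscle and adipocyte markers were higher in that library too, with median log2 ratios of 3.28 and 2.09, and their part was not tested. Cycs has processed copies in the genome, so some of its reads may be uncertain. Apaf1, the scaffold of the apoptosome, was at 40.6 and 45.9 CPM, a ratio of 1.13 (1.08 to 1.19). Diablo, which leaves mitochondria to neutralise caspase inhibitors, was at 45.0 and 41.1 CPM, 1.10-fold lower (1.04 to 1.15).

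The 4 caspases among the members and their 2 inhibitors differed by at most 1.32-fold. Casp8, the initiator caspase of death receptors, was at 93.0 CPM without and 108.3 CPM with acupuncture, 1.16-fold higher (1.13 to 1.20), and Casp2, an initiator linked to DNA damage, was at 47.9 and 54.1 CPM, 1.13-fold higher (1.08 to 1.18). Casp9, the initiator of the apoptosome, stood at 19.7 and 16.8 CPM, 1.18-fold lower (1.09 to 1.27). Casp6, an executioner that cleaves nuclear lamins, was at 47.1 and 35.6 CPM, 1.32-fold lower (1.26 to 1.39). The signs of Casp9 and Casp6 turned under the epithelial scaling, to log2 ratios of 0.26 and 0.09.

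Among the inhibitors, Cflar, encoding c-FLIP, which blocks caspase 8 at death receptors, was at 97.8 and 87.1 CPM, 1.12-fold lower (1.09 to 1.16). Against Casp8 it took 51.2% of the pair's reads without acupuncture (50.5 to 52.0) and 44.6% with it (43.7 to 45.5). Xiap, which binds and inhibits caspases, caspase 9 among them, was at 114.4 and 120.2 CPM, a ratio of 1.05 (1.02 to 1.08). Its share against Casp9 was 85.3% (84.7 to 85.9) and 87.8% (87.0 to 88.4). Relative to Cflar, Casp8 thus had a larger read share with acupuncture, and relative to Xiap, Casp9 had a smaller one. Each is a single gene pair and does not describe its route as a whole. The part of the differing cell content was not tested.

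Other genes of the pathway were read from 6 lists with 68 entries, of which 67 were in the table and 64 passed the count minimum. Of these, 5 were at least 2-fold higher with acupuncture and 2 at least 2-fold lower. Their median log2 ratio was 0.07. The counts are to be read beside the 9.21% and 4.90% of all measured genes. Of 21 further p53 targets 2 were higher and 1 lower, shares near those of all measured genes. Gadd45a, a DNA damage and stress response gene, was at 153.3 and 57.6 CPM, 2.66-fold lower (2.57 to 2.76), and Eda2r, a TNF receptor family member induced by p53, was at 1.13 and 3.37 CPM, 2.99-fold higher (2.37 to 3.79). Ephx1, an epoxide hydrolase, was 1.69-fold higher (1.55 to 1.83) and Sulf2, a heparan sulfatase, 1.47-fold lower (1.41 to 1.54). The other listed target, Zfp365, had 34 and 61 reads and was 2.91-fold higher (1.88 to 4.57). It lies outside the naming rule and was named after its value was seen.

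None of 13 genes of DNA damage kinases and p53 control passed 2-fold. Chek1, the checkpoint kinase of replication stress, was 1.71-fold higher (1.64 to 1.78) at 45.4 and 77.5 CPM, and Trp63, a p53 relative of basal epithelium, 1.72-fold lower (1.45 to 2.05) at 4.89 and 2.84 CPM. Prkdc, a DNA repair kinase, was 1.32-fold higher (1.24 to 1.41) and Hipk2, which phosphorylates p53, 1.33-fold lower (1.27 to 1.40). Among 7 other measured BCL2 family genes 1 was lower and none higher. Bnip3, a mitochondrial protein induced by hypoxia, was at 185.4 and 64.4 CPM, 2.88-fold lower (2.78 to 2.98), and its relative Bnip3l was 1.41-fold lower (1.38 to 1.44). Hypoxia markers, such as Ndrg1 at 884.4 and 189.1 CPM, were lower in the same library, and their part was not tested. Bcl2l13 and Bcl2l14 were at ratios of 1.17 (1.11 to 1.23) and 0.972 (0.769 to 1.22).

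Of 6 measured genes of apoptotic nucleases and substrates none passed 2-fold. Dffb, the nuclease that fragments DNA in apoptosis, was 1.43-fold higher (1.30 to 1.58), and its inhibitor Dffa was at 13.7 and 13.7 CPM, a ratio of 1.0002 (0.918 to 1.09). The mitochondrial flavoprotein Aifm1 was 1.26-fold higher (1.21 to 1.31) and the mitochondrial nuclease Endog 1.36-fold lower (1.21 to 1.53). Of 8 genes of the inhibitor of apoptosis family 1 was higher, Naip1, at 32 and 46 reads (2.33-fold, 1.45 to 3.78), likewise named after its value was seen. Birc5, encoding survivin, which also serves in mitosis, was 1.41-fold lower (1.37 to 1.45), Birc3 1.22-fold higher (1.16 to 1.28), Naip6 1.28-fold higher (1.09 to 1.49) and Naip5 at a ratio of 0.936 (0.839 to 1.04).

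Of 9 genes of death receptor signalling 2 were higher and none lower. Tnfsf10, encoding the death ligand TRAIL, was at 12.8 and 31.7 CPM, 2.47-fold higher (2.30 to 2.65). Nol3, an apoptosis repressor abundant in muscle, was at 3.87 and 8.96 CPM, 2.32-fold higher (2.03 to 2.64), in the library with the higher muscle markers. The adaptor Tradd was 1.52-fold lower (1.43 to 1.62) and the receptor Tnfrsf1a 1.05-fold lower (1.02 to 1.08). T cell markers, such as Cd3e at 1.98 and 12.6 CPM, were higher in the same library as Tnfsf10, and the part of the muscle and T cell markers was not tested.

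**Figure D5:**
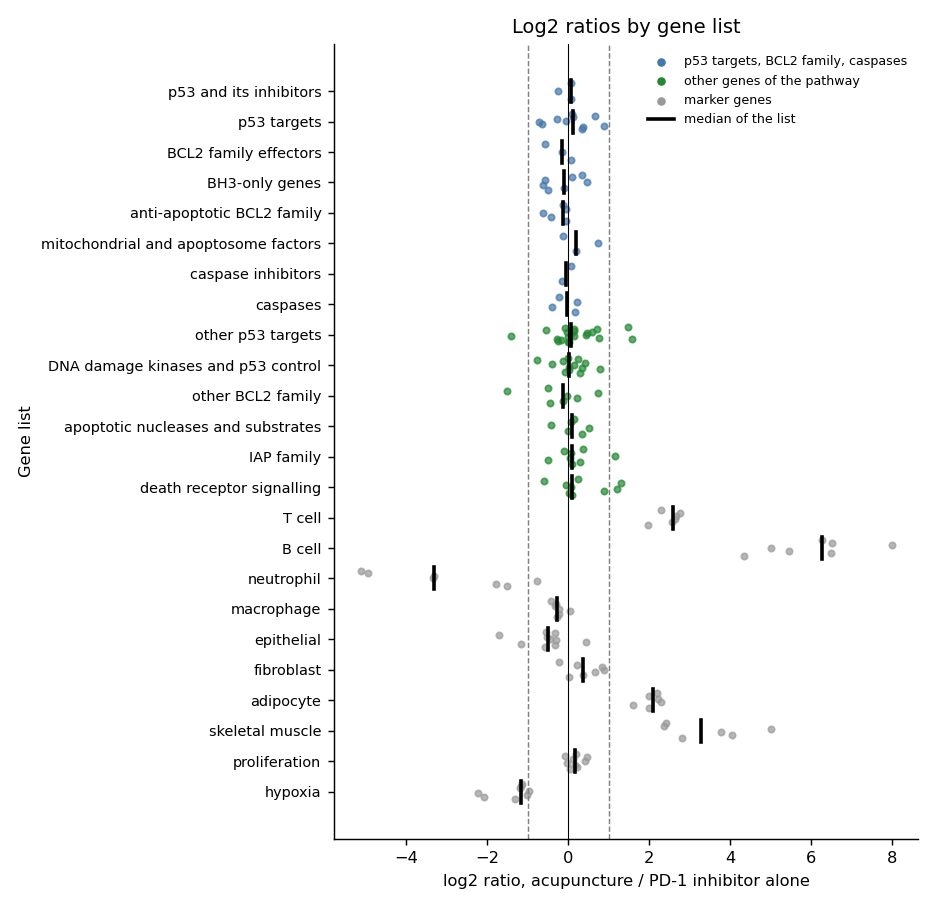
Log2 ratio of every measured gene by list, for the role groups of the 38 genes (blue), other genes of the pathway (green) and marker genes (grey), with the median of each list as a black bar and dashed lines at 2-fold. Medians of the role groups lie between -0.15 and 0.18, those of the lymphoid, adipocyte and muscle markers at 2.09 or above, and those of neutrophil and hypoxia markers at -3.33 and -1.18.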

How the data were processed

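Messenger RNA of 2 libraries of mouse breast tumour was analysed, 1 per group. Per the labels' protocols RNA came from a column kit and libraries from a SMARTer kit. The authors deposited raw counts per gene symbol, with no normalization, and 0 columns belonged to other samples. The submitters' processing notes list the builds GRCm39 and mm39. Of the aligner, counting program, versions and strand setting nothing is given in the sources used here. Without strand, reads of Bad and Gpr137 or of other overlapping genes on opposite strands cannot be told apart, and in GENCODE M21 the exons of Bax, Bcl2l2, Diablo and Bcl2a1b overlap other annotated genes on the same strand.

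Library sizes were multiplied by TMM factors (0.966 and 1.04) from edgeR 4.0.16 in R 4.3.3, taken over genes with 20 or more reads in both libraries together. CPM are counts per 1000000 of these sizes. Ratios are the library with acupuncture over the other, and their intervals come from the binomial distribution of a gene's reads between the libraries. Log2 ratios carry a prior count of 2, and the floor is 3 counts per library. Since reads carry no molecular identifiers, intervals and floors are limited to counting error. Levels per kilobase use the summed exon length of GENCODE M21 basic. The role groups, pathway and marker lists and pairs were chosen with earlier results of these data known. Some genes of the pathway lists are not reported here. All members were named, with up to 2 genes at either end of each other list among those with at least 100 combined counts. The calculation was tested on simulated data. Alternatives covered scaling, prior counts of 0.5 and 5, count minimums of 1 and 100, limits of 4-fold and 1.5-fold, ratios without the interval and thinning of the deeper library. The 1.5-fold limit under other scalings was added after the data were seen. DESeq2 1.42.0 served for its size factors. Intervals used scipy 1.17.1, figures matplotlib 3.10.9 and tables pandas 2.3.3, under Python 3.11.15.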

Additional observations from a re-analysis of the deposited data

How the results depend on the processing

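No paired analysis was possible because each group had 1 library and no test was run. The counts of 0 members past 2-fold held under every alternative except 2. With the epithelial markers set to a median of 0, 3 were higher (Ccng1, Trp53inp1 and Cycs, at log2 ratios of 1.38, 1.15 and 1.23) and 0 lower, and at a 1.5-fold limit 3 were higher and 6 lower. At 1.5-fold the 6 lower members became 4 by upper quartile, 1 by total counts, 1 by totals without the 10 most abundant genes and 0 under the epithelial scaling, where 12 were higher. No listed member changed sign, since none was listed, but 13 of 37 had log2 ratios of differing sign over the scalings. The deeper library thinned to the depth of the other moved no member across the limit and no pair share beyond its counting interval.

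Scaling by total counts, which moved the median of all genes to 0.10, gave medians of 0.16 for p53 and its inhibitors, -0.034 for anti-apoptotic genes and 0.17 for other genes of the pathway, with the same rounded values by totals without the 10 most abundant genes. Upper quartile scaling gave 0.087 for p53 and its inhibitors. The epithelial scaling, with the median of all genes at 0.49, gave 0.55 for p53 and its inhibitors, 0.34 for effectors, 0.36 for anti-apoptotic genes, 0.44 for caspase inhibitors, 0.46 for caspases, 0.43 for all members and 0.56 for other genes of the pathway. These shifts follow from the scaling itself, which adds 1 constant to every log2 ratio. It also changed the split of all calls, with 10.5% of them lower in place of 34.7%. Other genes of the pathway, 5 higher and 2 lower, became 12 and 1 under the epithelial scaling, 10 and 4 at 1.5-fold, 0 and 0 at 4-fold, and 3 higher with a count minimum of 100. Depth limits Bik, at 122 and 50 reads, and Hrk, at 0.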

Other observations

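Read shares of the 3 BCL2 family classes were compared after the values were seen. The 5 anti-apoptotic genes took 57.3% of the reads of the 16 family members without acupuncture (57.0 to 57.6) and 57.3% with it (56.9 to 57.7). The 3 effectors took 22.8% (22.5 to 23.0) and 23.0% (22.7 to 23.4), and the BH3-only genes 19.9% (19.7 to 20.2) and 19.6% (19.3 to 19.98). Mcl1 weighs most in these sums. Without it the anti-apoptotic share was 35.4% (35.0 to 35.7) and 33.2% (32.7 to 33.7) and the effector share 34.5% (34.1 to 34.8) and 36.02% (35.5 to 36.5), neither with overlapping intervals, while those of the BH3-only share overlapped, 30.2% (29.8 to 30.5) and 30.7% (30.3 to 31.2). With each gene divided by its exon length, all 16 genes gave anti-apoptotic shares of 42.9% and 42.1%, effector shares of 43.3% and 42.9% and BH3-only shares of 13.8% and 15.03%.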
